A study of Danio rerio with 2 samples.

Results

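Skeletal muscle cells were found among GFP-sorted cells of zebrafish embryos by a gate on 5 muscle genes. A cell was kept when *actc1b*, *mylpfa*, *pvalb2*, *tnni2a.4* and *ckmb* together made up 2% or more of its UMIs (unique molecular identifiers, each counting 1 captured mRNA molecule) and at least 4 of the 5 had a UMI. The gate took 12 of 1771 control cells and 67 of 3860 *mgat4b* mutant cells, 79 of the 5631 cells that had over 200 detected genes and under 5% mitochondrial UMIs. The cells were thus chosen by these measured values, and the levels of the 5 genes describe the gate and are not findings.

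Both groups were embryos at 36 h post fertilization (hpf) injected at the 1-cell stage with a plasmid that carried Cas9 and *gfp*, each under the *mitfa* promoter. In the study's design the plasmid of the mutant group also carried guides against *mgat4b*, an enzyme that adds a branch to N-linked glycans on secreted and membrane proteins, and the control group received a nontargeting plasmid. Cutting and GFP were thus both driven by the promoter of *mitfa*, a melanocyte transcription factor, in embryos that carried the plasmid in a mosaic way, so cells outside that promoter's activity are not a knockout of *mgat4b* by design. Each group gave 1 library of pooled sorted cells, so there was no replicate check, no p-value was computed, and each difference compares 2 libraries and not 2 conditions. All intervals are 95% intervals of counting error only.

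Skeletal muscle arises in the somites, where the transcription factors Myod, Myf5 and Myog turn progenitors into cells that stop dividing and fuse into fibres. The contractile unit is the sarcomere, in which myosin filaments pull on actin filaments between Z discs. Titin and nebulin set its length, and troponin and tropomyosin switch it on when calcium is released from the sarcoplasmic reticulum. In zebrafish the slow fibres, a superficial layer built with Smyhc myosins, and the deeper fast fibres are separate cells that use different genes for most sarcomere proteins. Creatine kinase, parvalbumin and the calcium pump Atp2a1 buffer energy and calcium, and the dystrophin complex ties the sarcomere to the matrix outside the fibre.

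Across the series the files held 1923 control and 4120 mutant barcodes with 17502003 and 31032783 UMIs. The libraries had 2 barcodes in common, and 0 of them lay in the gate. The gated cells were deeper than the rest, with a median of 39094 UMIs in control (range 1156 to 64444) and 20446 in mutant (645 to 55606), against 4842 and 6393 in the other passing cells. They made up 0.678% of control cells (Clopper-Pearson interval 0.351 to 1.18%) and 1.74% of mutant cells (1.35 to 2.199%), a ratio of shares of 2.56 (Katz interval 1.39 to 4.72). With a sort on GFP, this share counts what passed the sorter in 2 runs. A further 7 mutant barcodes met the gate but failed the mitochondrial limit, against 0 in control.

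The samples were labelled as melanocytes, and the gated cells went against that label. Their 12 melanophore genes summed to 10 UMIs in control and 26 in mutant, 0.00268% and 0.00193% of the gated UMIs. The list was also sparse in the other cells, at 0.0101% and 0.0253% of their UMIs, so a low level is not particular to the gate. *mitfa* itself had 1 UMI in 1 of 12 control cells and 11 UMIs in 8 of 67 mutant cells, 2.68 and 8.19 UMIs per 1000000 gated UMIs (CPM), against 13.1 and 47.2 CPM in the other cells, there scaled to their own total. Next in the list, *mlpha* had 1 and 9 UMIs, *kita* 2 and 3, and *tyrp1b* 5 and 0, its 5 in 1 control cell. The melanin genes *dct* and *pmela*, singled out after their values were seen, had 0 UMIs in the gate in both libraries. The *gfp* and Cas9 transcripts are not among the counted genes and were not analysed here.

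The gate genes cover contraction, calcium and energy. *actc1b* (ENSDARG00000099197), a sarcomeric actin, stood at 64777 CPM in the control gated cells and 51340 CPM in the mutant ones, against 76.6 and 194 CPM in all other cells. *mylpfa* (ENSDARG00000053254), a fast regulatory light chain, stood at 32326 and 23080 CPM. *pvalb2* (ENSDARG00000002768), a calcium-buffering parvalbumin, stood at 25673 and 16843 CPM. Together with the fast troponin I gene *tnni2a.4* (ENSDARG00000029069) and the creatine kinase gene *ckmb* (ENSDARG00000040565), they made up 16.1% of the control and 11.7% of the mutant gated UMIs, against 0.0141% and 0.0268% outside. In both libraries over 90% of the UMIs of each of the 5 genes fell in the gated cells, from 90.9% for *ckmb* in control to 99.3% for *pvalb2* in mutant.

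Per cell, the gate genes took 2.01 to 21.5% of the UMIs in control with a median of 16.4%, and 2.17 to 23.7% in mutant with a median of 10.1%. The control cells fell into 7 cells at 16.3% or more and 5 at 9.20% or less, with 0 between 10 and 15%, where 20 mutant cells lay. The control median was above the mutant median, and this shift in the kind of gated cell stands beside every comparison of the libraries. Just inside the threshold were control cells at 2.01 and 3.07% and mutant cells at 2.17 and 2.21%. Just outside it were 4 control cells between 1 and 2%, at 1.12, 1.15, 1.28 and 1.41%, and 1 such mutant cell. A further 2 control and 10 mutant cells had 2% or more but too few of the genes, up to 4.03 and 6.73%, and all 12 had 0 *pvalb2* UMIs.

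**Figure D1:**
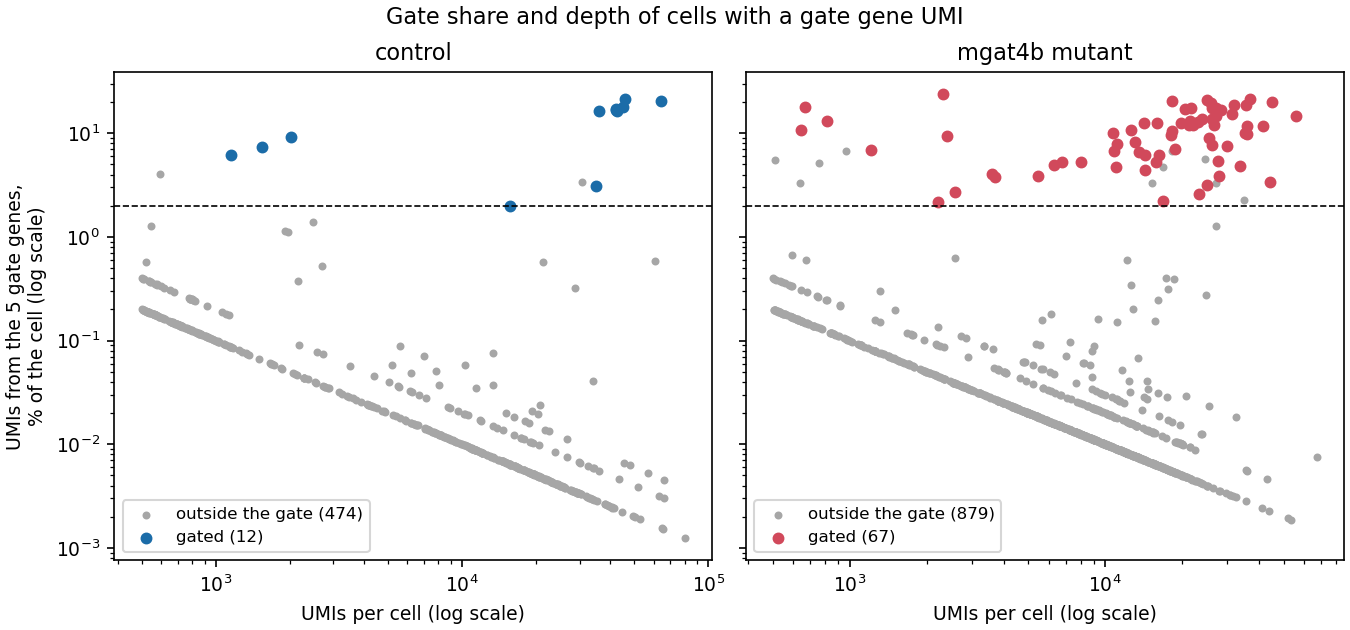
Share of UMIs from the 5 gate genes (vertical, log scale) against UMIs per cell (horizontal, log scale) for each passing cell with at least 1 gate gene UMI, control on the left and mutant on the right. Coloured points are the 12 and 67 gated cells, grey points the 474 and 879 cells outside, and the dashed line is the 2% threshold. Over all cells outside the gate, 99% lay at or under 0.359% in control and 0.218% in mutant.

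Outside the gate, 26.9% of control and 23.2% of mutant cells had at least 1 gate gene UMI, and the median share was 0. In cells with at least 3 neuron markers, which should lack these transcripts, 31.0% of 590 control cells and 22.3% of 719 mutant cells had a UMI, at median depths of 8906.5 and 5877. The summed level in those neuron-marked cells was 0.00927% in control and 0.00494% in mutant. A single UMI of a muscle gene outside the gate is therefore read as background. Of the gated cells, 3 in control and 10 in mutant had under 5000 UMIs, together 1.26% and 1.502% of the gated UMIs, with gate shares of 6.23 to 9.20% and 2.17 to 23.7%. *ttn.1*, a titin gene, had 0 UMIs in 1 of those 3 and 6 of those 10, and in 0 control and 1 mutant cell of the deeper ones.

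The genes with the largest folds in the gated cells were mostly those of the fast sarcomere. Over all genes with at least 50 UMIs, 700 of 18119 (3.86%) were at least 2-fold higher in the gated than in the other cells of both libraries with an interval above 1, and 6170 (34.1%) were at least 2-fold lower. Since the gate chose the cells, these counts describe it and carry no test. Of the fast sarcomere list, 18 of 20 measured members were higher and 0 lower. *mylpfb*, the second fast regulatory light chain, stood at 8001 and 4062 CPM in the gate, 4179-fold (2954 to 6121) and 2413-fold (1822 to 3265) above the other cells. The fast myosin heavy chain *myhz1.3* was 2544-fold and 2852-fold higher, and *myhz2* 929-fold and 2428-fold. *pvalb1* was 3385-fold and 1744-fold higher, and the adenine nucleotide carrier *slc25a4*, with only 3 UMIs outside in each library, 2176-fold (730 to 10674) and 1762-fold (596 to 8601).

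The remaining genes with the largest folds filled in the same machinery. They were the myosin light chains *mylz3* and *myl1*, the tropomyosin *tpma*, the myosin heavy chains *myhz1.1*, *myhz1.2* and *myhc4*, the myosin-binding protein *mybpc2b*, the Z disc protein *myoz1b*, the parvalbumin *pvalb3* and *ankrd1b*, an ankyrin-repeat protein of the sarcomere, at 682- to 4661-fold over both libraries. Members of the *myhz* and *tnni2a* clusters are near-identical copies, and how reads divide among them is uncertain.

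Around the sarcomere, the other muscle lists followed the gate to differing degrees. The Z disc, M band and titin list had 32 of 36 measured members higher and took 3.198% of control and 4.101% of mutant gated UMIs, against 0.0481% and 0.0435% elsewhere. Its leading members were the titin genes *ttn.2* (8924 and 13452 CPM) and *ttn.1* (8742 and 13214 CPM), nebulin (*neb*, 2721 and 3301 CPM) and desmin (*desma*, 1905 and 1965 CPM). Calcium handling had 23 of 24 members higher, at 4.30% and 3.002% of UMIs, led by *pvalb1* and by *atp2a1*, the sarcoplasmic reticulum calcium pump (10698 and 10002 CPM). Energy metabolism had 18 of 27 higher and 3 lower, with the creatine kinase *ckma* at 15352 and 10370 CPM and the adenylate kinase *ak1* at 4695 and 3076 CPM.

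Genes of the fibre surface were expressed at lower levels. The dystrophin complex and costamere list had 11 of 28 members higher and 7 lower, summing to 0.215% and 0.309% of UMIs. Its most abundant members were the caveolin *cav3* (535 and 564 CPM), dystrophin (*dmd*, 361 and 593 CPM) and the sarcoglycan *sgcd* (375 and 420 CPM). The neuromuscular junction list had 9 of 12 higher and 1 lower, led by *musk*, the kinase that organises the synapse (152 and 240 CPM). Of the myoblast fusion genes 2 of 12 were higher and 6 lower, beside 3.86% and 34.1% of all genes.

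**Figure D2:**
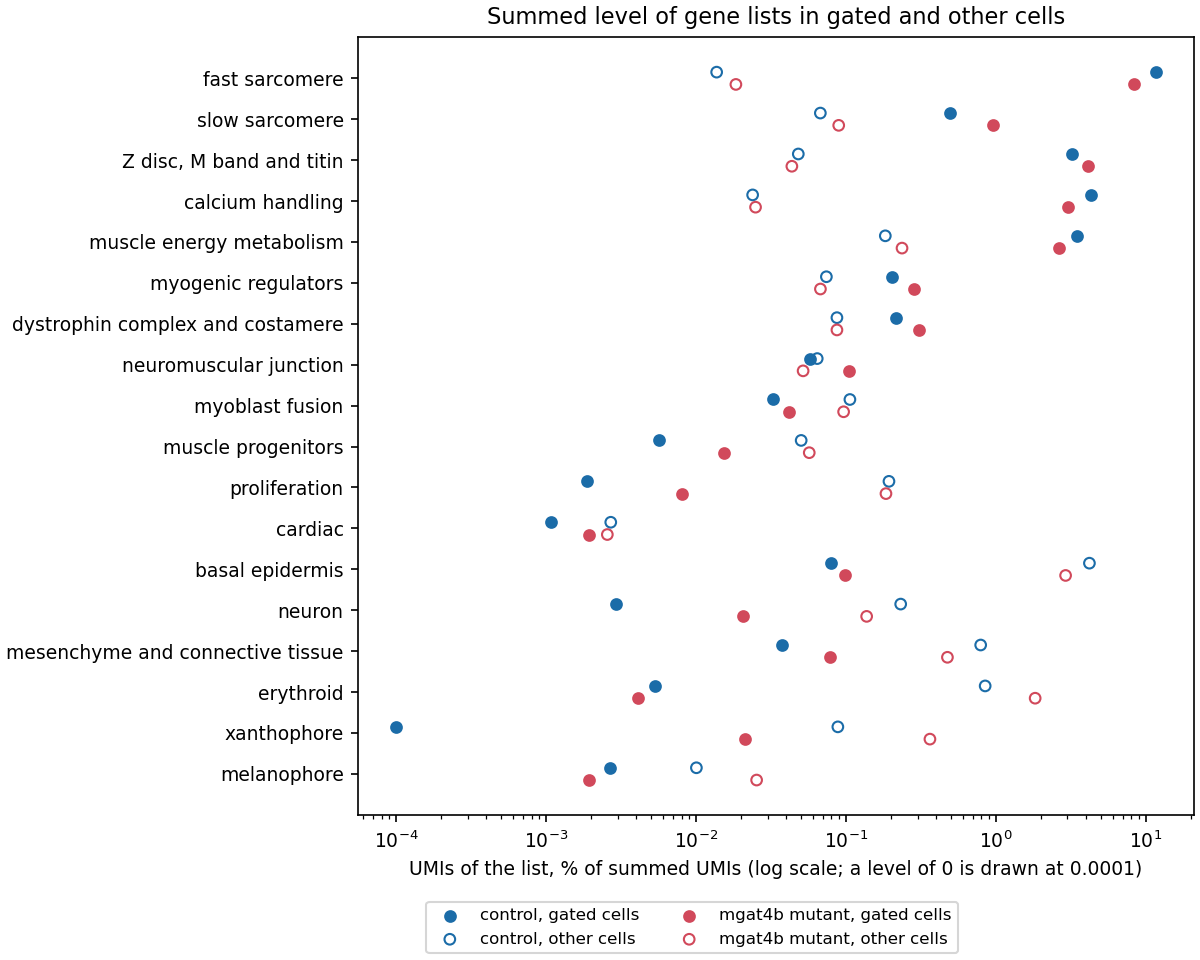
Summed level of gene lists as a percentage of UMIs (horizontal, log scale) in gated cells (filled) and all other passing cells (open), control in blue and mutant in red. The sarcomere, calcium and energy lists lie between 0.491 and 11.6% in the gate, and the proliferation, neuron and pigment cell lists lie under 0.03%.

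The gated cells had the profile of differentiated fibres. *myod1* had 29 UMIs in 8 of 12 control cells and 109 UMIs in 41 of 67 mutant cells, 77.6 and 81.1 CPM, against 3.17 and 2.34 CPM elsewhere. *myog*, which drives terminal differentiation, had 20 UMIs in 3 control cells and 58 UMIs in 25 mutant cells. In control, 18 of those 20 lay in 1 cell with a gate share of 3.07%. In mutant, *myog* stood at 136.7 CPM in the 14 cells under 5% gate share and at 21.2 CPM in the 15 cells at 15% or more. *myf5*, which marks earlier cells, had 0 UMIs in control and 2 in mutant, against 122 and 199 UMIs outside the gate. The gate held only 2.19% and 4.41% of all UMIs of passing cells, so the control 0 does not by itself show a lower *myf5* level. These 3 factors were singled out after their values were seen. By the list rule, *mef2ca*, *mef2d*, *mef2cb*, partners of Myod in muscle transcription, and the splicing factor *rbfox1l* led the regulators, where 10 of 17 members were higher and 2 lower.

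Cell division genes were near 0. The 24 proliferation genes summed to 7 UMIs in control and 109 in mutant, 0.00187% and 0.00811% of gated UMIs against 0.193% and 0.185% elsewhere, with 22 of their 26 measured rows lower in the gate and 0 higher. *mki67* had 4 and 13 UMIs. Progenitor genes had 0 of 18 members higher and 6 lower, near the 3.86% and 34.1% of all genes, and *pax7a*, a marker of muscle stem cells and of xanthophores, had 0 UMIs in control and 19 in mutant. Cardiac genes summed to 4 and 26 UMIs, and smooth muscle genes to 6 and 69.

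Markers of other cell classes were low in sum but not absent. Basal epidermis genes took 0.0800% and 0.0988% of gated UMIs against 4.202% and 2.91% elsewhere, and neuron genes 0.00294% and 0.0205% against 0.232% and 0.137%. Only 1 gated cell, a control cell of 2022 UMIs, had 2% or more from another class (3.31% epidermal). In mutant, 1 cell held 201 of the 225 UMIs of the pteridine gene *gch2* and 0.805% xanthophore UMIs. Leaving out the 1 control cell gave an *mgat4b* ratio of 2.43 between the libraries and 385 genes higher and 39 lower in mutant. The part of the mutant cell was not tested.

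Slow and fast myosin heavy chains lay mostly in separate cells. The slow myosin heavy chains *smyhc1*, *smyhc2* and *smyhc3* gave 417 UMIs in control beside 4936 fast ones, a share of 7.79% (7.09 to 8.54%), and 2268 beside 20214 in mutant, 10.1% (9.70 to 10.5%). The slow UMIs of control all came from 1 cell, which had 0 fast myosin UMIs, and the other 11 cells had 0 slow UMIs. In mutant, 6 cells held 167 to 646 slow UMIs each with 0 to 65 fast ones, and of the other 61 cells 3 had no fast myosin UMI and none had more than 1 slow UMI. Slow cells thus made up 8.33% (0.211 to 38.5%) of control and 8.96% (3.36 to 18.5%) of mutant gated cells, which cannot be told apart at this depth. Only 3 mutant cells had a slow share between 5 and 95%.

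**Figure D3:**
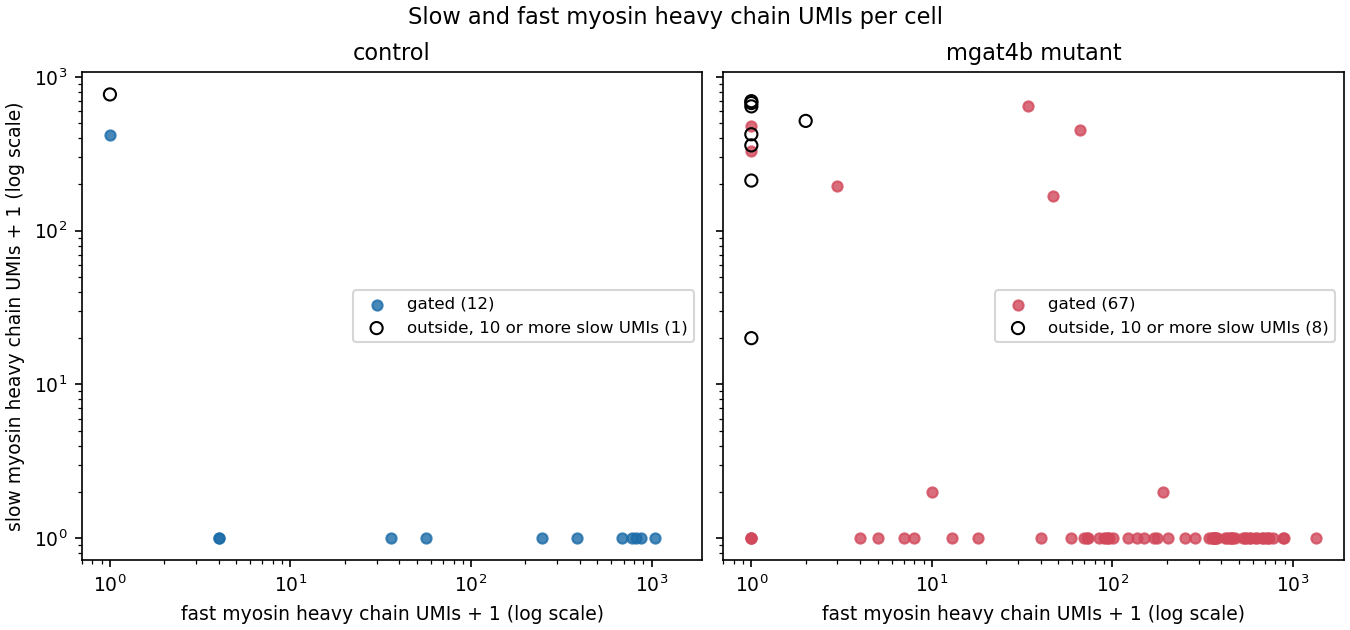
Slow (vertical) against fast (horizontal) myosin heavy chain UMIs per cell, each plus 1 on log scales, control on the left and mutant on the right. Filled points are gated cells and open circles are cells outside the gate with 10 or more slow UMIs; the 7 gated slow cells lie at the top, and 72 gated cells lie along the bottom with at most 1 slow UMI.

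Between these 7 slow cells (154824 UMIs) and the other 72 (1562717 UMIs), genes that the split did not use differed as well. The genes named here were singled out after their values were seen. *myl10*, a slow regulatory light chain, stood at 25093 CPM in the slow cells and 47.4 CPM in the others. The troponin genes *tnni1c* and *tnnc1b* stood at 2377 against 5.12 CPM and at 7699 against 152 CPM, and the tropomyosin *tpm3* at 4528 against 37.8 CPM. The fast genes ran opposite, *mylpfb* at 32.3 against 5403 CPM and *tnnt3b* at 123 against 10676 CPM. Calcium handling split by gene copy: *ryr1a*, a calcium release channel, stood at 969 CPM in slow cells and 46.7 CPM in the others, while its relatives *ryr1b* and *ryr3* stood at 103 against 792 CPM and at 51.7 against 623 CPM. *pvalb4* was 15.03-fold higher in the slow cells (13.6 to 16.6) and *pvalb1* lower, at a ratio of 0.26.

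Some parts of the fibre varied little between slow and other cells, and others of the same lists did not. The Z disc and M band list also held *myom2a* at 0 against 666 CPM and *myom1b* at 1098 against 175 CPM. In the calcium list *casq1a* stood at 25.8 against 249 CPM, and *dmd* stood at 258 against 571 CPM. Among those that varied little were *ttn.2*, *neb* and *casq2*. *ttn.2* stood at 11310 CPM in slow cells and 12581 CPM in the others, *neb* at 2932 and 3198 CPM, and *casq2*, a calcium-binding protein of the reticulum, at 614 and 625 CPM. Members of the slow list did not all go with slow myosin: *myoz1a* and *myoz2a* stood at 12.9 against 72.3 CPM and at 25.8 against 138 CPM. *acta1a* of the fast list was 2.48-fold higher in the slow cells.

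The gate did not take all slow cells. Outside it, 1 control cell with 769 slow myosin UMIs and 8 mutant cells with 19 to 695 held 63.7% and 60.5% of all slow myosin UMIs of their libraries. Those 9 cells had 0 UMIs of *pvalb2* and of *tnni2a.4* but 665 and 4736 UMIs of *actc1b*. The slow share of the gated cells is thus a value of this gate and not of the muscle in the sort.

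*mgat4b* (ENSDARG00000004115) was detected in both gated groups. It had 23 UMIs in 9 of 12 control cells, 61.5 CPM (39.0 to 92.3), and 193 UMIs in 41 of 67 mutant cells, 144 CPM (124 to 165). In the library labelled mutant the gated cells were therefore at 2.33 times the control level (1.51 to 3.77). In all other cells it stood at 81.2 CPM in control and 60.6 CPM in mutant, a ratio of 0.75 (0.70 to 0.80). Against the other cells of its own library the gated level was 0.76 (0.48 to 1.14) in control, an interval that includes 1, and 2.37 (2.03 to 2.75) in mutant. These 3′ counts measure transcript level and do not show whether the gene was cut.

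Per cell, the median was 36.4 CPM in control (0 to 495) and 55.7 CPM in mutant (0 to 2578), so the cell ranges overlapped. The largest mutant counts were 15, 14 and 13 UMIs in 1 cell each. Leaving out each control cell in turn kept the ratio between 1.93 and 2.80, each with an interval above 1. The lowest, 1.93 (1.25 to 3.12), came without the deepest control cell, which had 64444 UMIs and 0 of *mgat4b*, and it fell short of the 2-fold size rule. The share of cells with a UMI did not follow the level. Unthinned it was 75% in control and 61.2% in mutant, at median depths of 39094 and 20446. With each cell thinned to 11045 UMIs, which left out 3 control and 17 mutant cells, it was 33.3% (3 of 9, 7.49 to 70.07%) and 52.0% (26 of 50, 37.4 to 66.3%), a ratio of 1.56 (0.60 to 4.08). With each cell thinned to 20446 UMIs the order was the opposite, 75% in control (6 of 8) and 64.7% in mutant (22 of 34), a ratio of 0.86 (0.54 to 1.38). Both intervals include 1. Among other cells thinned to 11045 UMIs it was 21.8% and 21.99%.

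The summed *mgat4b* level also varied with the gate share. In mutant it was 191 CPM (138 to 259) in the 14 cells under 5%, 156 and 155 CPM in the next 2 bands, and 92.9 CPM (64.7 to 129) in the 15 cells at 15% or more. The share of mutant cells with a UMI did not follow, at 5 of 14, 13 of 18, 13 of 20 and 10 of 15. Of the 42 UMIs under 5%, 1 cell held 13 and another 14. In control the summed level was 53.4 CPM (31.1 to 85.5) in the 7 cells at 15% or more, and the other 5 cells held 6 UMIs. Within the cells at 15% or more, the mutant over control ratio was 1.74 (0.95 to 3.31), with 17 and 35 UMIs, an interval that includes 1. By fibre type, the 61 fast or unclassified mutant cells stood at 152 CPM and the 11 control ones at 53.05 CPM, a ratio of 2.86. The slow cells ran the other way, at 71.9 CPM (34.5 to 132) in 6 mutant cells with 10 UMIs and 256 CPM (69.6 to 654) in 1 control cell with 4 UMIs, intervals that overlap.

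**Figure D4:**
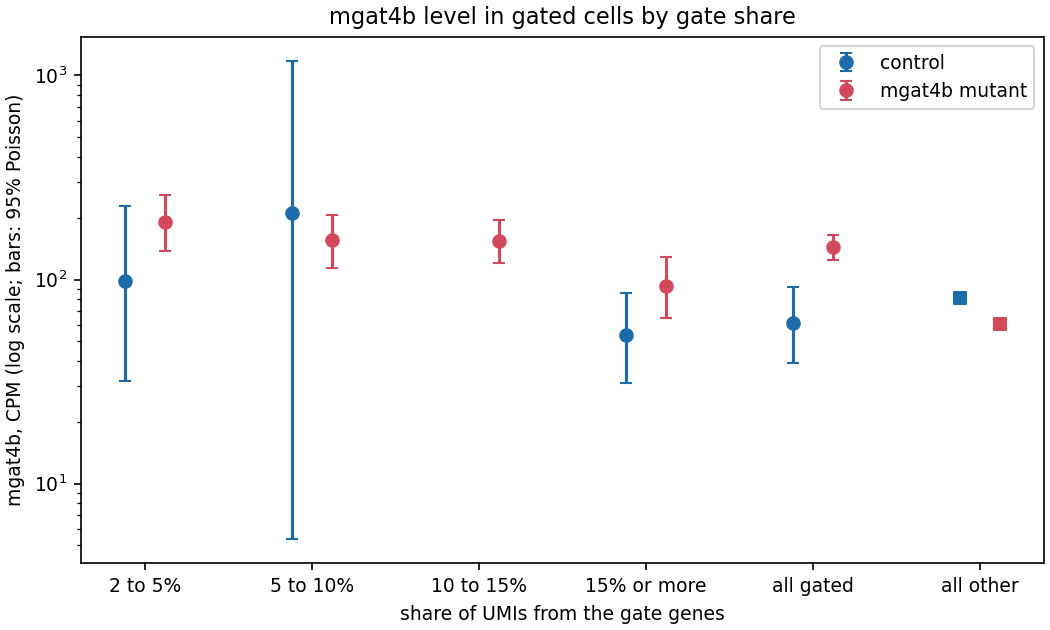
*mgat4b* level in CPM (vertical, log scale) in gated cells by the share of their UMIs from the gate genes, in all gated cells and in all other cells (squares), control in blue and mutant in red. Bars are 95% Poisson intervals, and no control cell lay between 10 and 15%; over all gated cells the mutant stands at 144 CPM and the control at 61.5 CPM, and in the band of 15% or more their intervals overlap.

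The other enzymes of N-glycan branching were sparse in these cells. None of the 13 genes of that list was higher in the gate and 8 were lower, beside 3.86% and 34.1% of all genes. After *mgat4b* the most abundant were *man1a2* (1 and 18 UMIs), *mgat1a* and *man2a2* (4 and 12 UMIs each). *mgat4a*, which adds the same branch, had 0 UMIs in control and 13 in 10 mutant cells. *mgat4b* was the only member with 50 UMIs over both libraries.

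Over all genes, 2237 had at least 50 UMIs in the gated cells. Of these, 368 (16.5%) were at least 2-fold higher in mutant with an interval above 1, and 41 (1.83%) at most 0.5-fold with an interval below 1, around a median log2 ratio of 0.30. With TMM scaling (trimmed mean of M-values), which moved that median down by 0.28, the counts were 216 and 101. The gated cells gave 1343720 UMIs in mutant and 373821 in control. Without the deepest control cell 257 genes were higher and 50 lower, 247 and 28 of them among the calls over all gated cells. Among the cells at 15% or more gate share, 7 in control and 15 in mutant, 785 genes could be tested, 40 were higher and 21 lower, and 20 and 10 of them were also called over all gated cells.

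The fast sarcomere list was lower in mutant as a whole, at 8.30% against 11.6% of UMIs, with a median log2 ratio of -0.45 over 18 measured members, 0 higher and 2 lower past the size rule. The leading members *tpma*, *myl1*, *mylz3* and *tnnt3a* stood at ratios of 0.65 to 0.79. The 2 called members were the embryonic myosin *myha* (80.3 and 25.3 CPM, ratio 0.32, interval 0.19 to 0.53, and 0.638 without the control cell that held 17 of its 30 control UMIs, where the call was lost) and the skeletal actin *acta1b* (9047 and 4197 CPM, ratio 0.46). The deepest control cell, which had 17.2% of the control gated UMIs, 0.0155% mitochondrial UMIs and 20.1% fast sarcomere UMIs, held 57.3% of the control *acta1b* UMIs. Without it *acta1b* was at 0.90 and the list at 9.88% in control.

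Summed over all gated cells, slow sarcomere genes were higher in mutant, at 0.953% against 0.491%. Slow cells gave 139175 of the 1343720 mutant and 15649 of the 373821 control gated UMIs. Their median log2 ratio was 0.47, with 5 of 14 members past the size rule and 0 below. Over all genes 16.5% were higher and the median was 0.30. *myl10* stood at 425 and 2828 CPM (ratio 6.65, 5.67 to 7.84), *tpm2* at 473 and 1212 CPM (2.56) and the slow troponin T *tnnt2d* at 169 and 411 CPM (2.44). Of the *myl10* UMIs, 158 of 159 in control and 3727 of 3800 in mutant lay in the slow cells, so the control value rests on 1 cell. Of the *tnnt2d* UMIs, 60 of 63 in control and all 552 in mutant lay in the slow cells, and without its top cell the ratio was 1.48 and no longer called. *tpm2* was less confined, with 83 of 177 control and 1240 of 1628 mutant UMIs in the slow cells, and without those cells its ratio was 1.23 and no longer called. The slow myosin *smyhc1* stood at 1065 and 1581 CPM (1.49) and was not called. Without the 1 slow control cell the list stood at 0.195% in control, and the mutant sum without its slow cells was not computed. Per gated cell, the median share of the list was 0.188% in control and 0.168% in mutant. With slow cells left out of both libraries, 2 of 7 measured members were higher and 1 lower. Their median log2 ratio was then at -0.07 relative to that of all genes.

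Titin and Z disc genes had 1 of 31 higher (*flncb*, a filamin, ratio 2.33, and 1.93 without the deepest control cell) and 0 lower. Their median log2 ratio of 0.09 lay below the 0.30 of all genes, of which 16.5% were higher and 1.83% lower. *ttn.1* and *ttn.2* each stood at 1.51-fold in mutant. Calcium handling had 0 of 23 higher and 2 lower, the parvalbumins *pvalb1* (23896 and 11927 CPM, ratio 0.50) and *pvalb4* (1744 and 743 CPM, 0.43), while *atp2a1* was at 0.935. Without the deepest control cell *pvalb1* was at 0.62 and no longer called, and *pvalb4* remained called at 0.39. However, another control cell held 416 of the 652 control *pvalb4* UMIs, at 9222 CPM against a median of 153 CPM per control cell. The ratio without that cell was not tested, so the lower call is not shown to hold beyond 1 control cell. Of the *pvalb4* UMIs, 86 in control and 901 of 998 in mutant lay in the slow cells. Energy metabolism, a list that also held the actin gene *actc1a*, had 1 of 21 higher (*gyg1a*, glycogenin, 6 and 54 UMIs) and 5 lower, with a median of -0.20. The lower ones included the glycolytic enzymes *pgk1* (334 and 144 CPM, 0.43) and *ldha* (372 and 171 CPM, 0.46) and the nucleoside kinase *nme2b.2* (2325 and 1032 CPM, 0.44), the last at 0.55 without the deepest control cell. Without the top cell of each gene *pgk1* and *ldha* stood at 0.592 and 0.631 and were no longer called.

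Among surface and synapse genes, the neuromuscular junction list had 2 of 9 higher in mutant and 0 lower with a median log2 ratio of 0.59, and the dystrophin complex list 3 of 14 higher and 0 lower with a median of 0.69, beside 16.5% higher and a median of 0.30 over all genes. *chrng*, the embryonic subunit of the acetylcholine receptor, stood at 29.4 CPM (11 UMIs in 4 cells) and 161 CPM (217 UMIs in 38 cells), a ratio of 5.49 (3.01 to 11.2). It varied with the gate share in mutant, from 323 CPM under 5% to 21.2 CPM at 15% or more, and among the cells at 15% or more its ratio was 0.68 (0.23 to 1.90). *agrn*, which encodes the nerve and muscle signal agrin, stood at 16.1 and 112 CPM (7.001, 3.14 to 19.4), and at 2.25 (0.54 to 13.2) among those cells. *dysf*, a membrane repair protein, and *lama2*, the laminin bound by the dystrophin complex, stood at ratios of 2.04 and 2.28, and the adhesion protein *tln1* at 2.18. The regulators had 1 of 14 higher (*mef2d*, 2.03) and myoblast fusion 1 of 5 (*dock1*, 2.14). *agrn*, *tln1* and *dock1* were at least 2-fold lower in the gated than in the other cells of both libraries. Outside the gate, *agrn* stood at 594 CPM in control and 478 CPM in mutant, *tln1* at 209 and 213, and *dock1* at 287 and 268. Without the deepest control cell *dysf*, *lama2*, *tln1*, *mef2d* and *dock1* stood at 1.79, 1.89, 1.81, 1.68 and 1.77, all short of the size rule, while *chrng* and *agrn* remained called at 4.54 and 5.79.

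**Figure D5:**
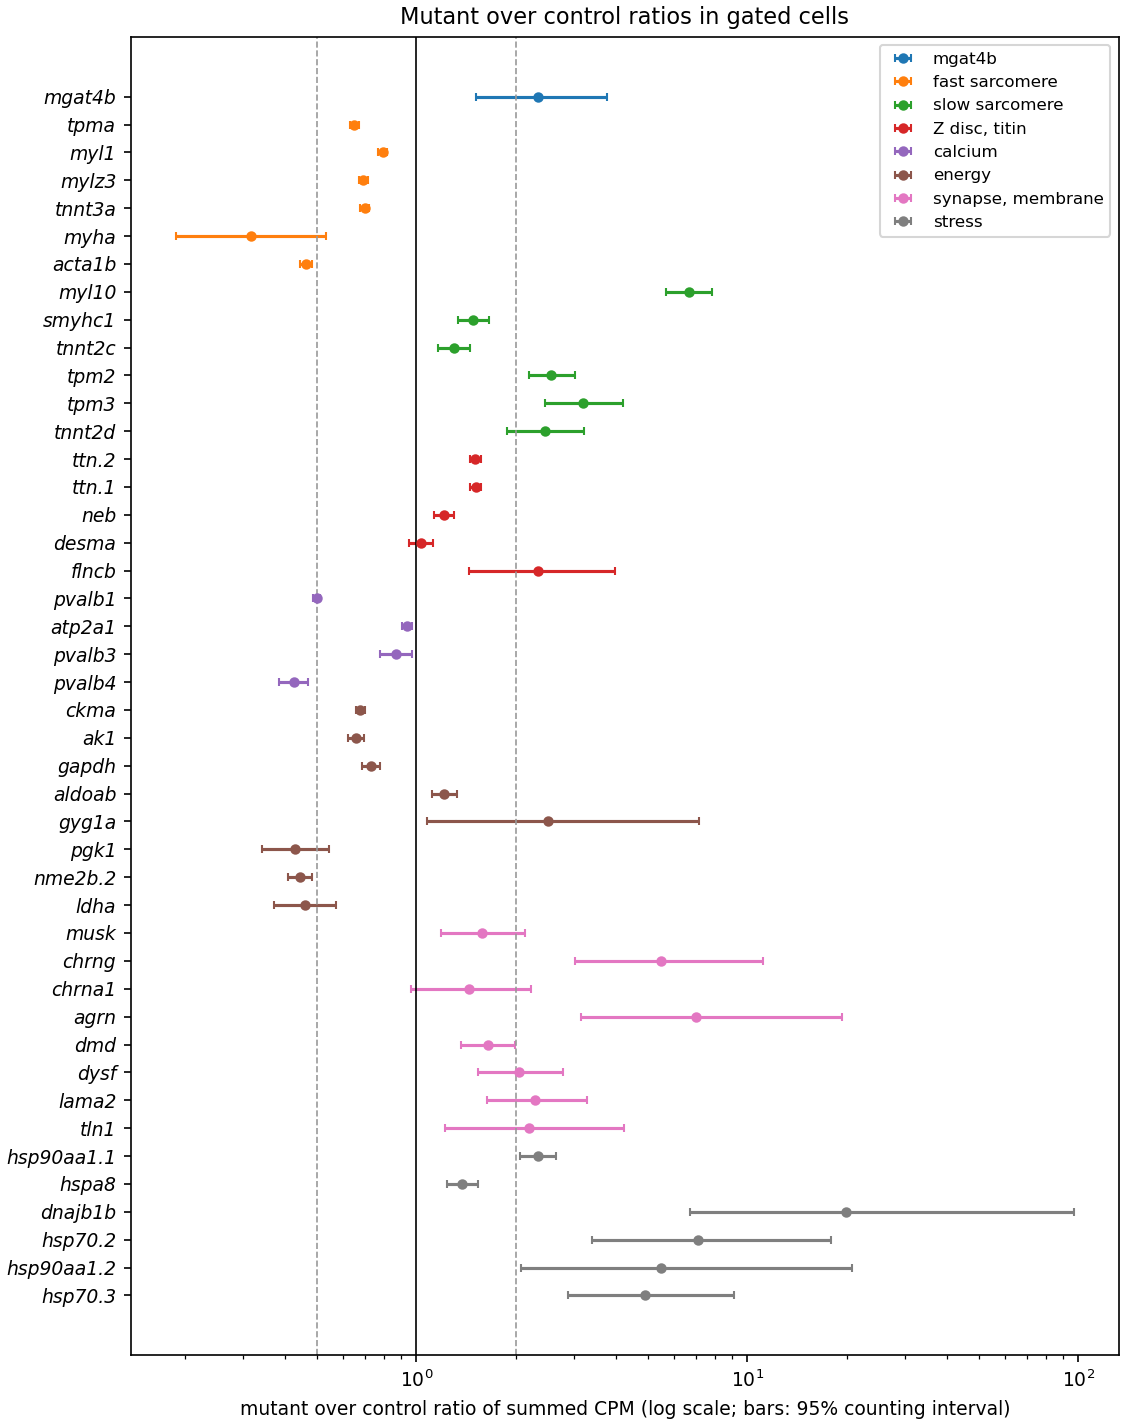
Mutant over control ratio of summed CPM in gated cells (horizontal, log scale) for members of the lists with the most UMIs and for members past the size rule. Points are ratios, bars 95% counting intervals between 1 library each, and dashed lines mark 0.5 and 2; leading fast genes lie at 0.65 to 0.79 and *myl10*, *chrng*, *agrn* and 4 of the stress genes lie above 4.

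Stress genes made up another group with several calls. Of the immediate early and stress list, 5 of 19 measured members were higher and 0 lower, beside 16.5% higher over all genes. All 5 were chaperone genes, and the list median of 0.20 lay below the 0.30 of all genes. *hsp70.3* stood at 37.5 CPM (14 UMIs) and 184 CPM (247 UMIs), a ratio of 4.91 (2.87 to 9.11), and *hsp70.2* at 18.7 and 133 CPM (7.11, 3.38 to 17.9). The co-chaperone *dnajb1b* had 3 and 214 UMIs (ratio 19.8, 6.70 to 97.0). *hsp90aa1.1*, a chaperone that folds muscle myosin, stood at 757 and 1759 CPM (2.32, 2.05 to 2.64, and 1.91 with TMM, short of the size rule). Among the other cells the same ratios were 2.79, 2.27, 2.15 and 1.13. Among gated cells at 15% or more gate share *hsp70.3* stood at 2.11 (1.11 to 4.25), *hsp70.2* at 3.02 (1.27 to 8.27) and *dnajb1b* at 2.25 (0.54 to 13.2). The immediate early genes *fosab* and *atf3* stood at 1.03 and 0.95.

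Marker lists of other cell classes also had members higher in mutant, at low levels. Of the measured members, 3 of 4 were higher in the mesenchyme list and 3 of 3 in the notochord and cartilage list. In each of the tendon and periderm lists 2 of 3 were higher, and 0 were lower in these lists. Over all genes 16.5% were higher, and in the basal epidermis list 0 of 5. Without each gene's top cell *col2a1a*, *krt18a.1* and *krt8* of the notochord list stood at 0.612, 1.25 and 1.37. The periderm genes *icn* and *icn2* then stood at 2.32 and 1.27, and none of these was still called. The mesenchyme genes *col1a2*, *col5a1* and *col1a1b* remained called without their top cell. At 10% or more gate share they stood at 1.54, 1.42 and 0.77, and none was called. *col5a1* was also not called without the deepest control cell, at 1.83. The mesenchyme list took 0.0375% of control and 0.0778% of mutant gated UMIs, the tendon list 0.0626% and 0.113%, the notochord and cartilage list 0.00722% and 0.0188%, and the periderm list 0.00883% and 0.0249%. The tendon list is not particular to tendon. It holds *xirp2a*, also in the Z disc list, and *col1a2*, also in the mesenchyme list. Of these, *xirp2a* alone had 164 UMIs in the slow and 1031 in the other gated cells. The part of these lists in the other differences was not tested.

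The single genes with the largest ratios were mostly sparse in control. *c4b*, a complement component, had 0 UMIs in control and 136 in 17 mutant cells, at least 12.6-fold higher against 3 counts per library, with 39.7% in 1 cell. *gch2* (0 and 225 UMIs, at least 20.9-fold) had 89.3% of its UMIs in 1 cell, and *CABZ01021592.1* (7 and 539 UMIs) 88.5%. *celf5a* (2 and 156 UMIs) had 52.5% in 1 cell and *icn* (5 and 172 UMIs) 74.0%. More widely spread were *ggctb*, a glutathione-cycle enzyme (1 UMI and 143 UMIs in 32 cells, ratio 39.8, 7.03 to 1582), the linker histone *h1-10* (2 and 235 UMIs, 32.7), the Hairy-related repressor *her6* (5 and 184 UMIs, 10.2) and the muscle sodium channel *scn4ab* (3 and 109 UMIs, 10.1). *ggctb* and *h1-10* were also higher among the cells at 15% or more gate share, at 29.6 (4.97 to 1202) and 9.72 (2.403 to 85.1).

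In the other direction, *ankrd1b* had 199 UMIs in 3 control cells and 161 in 16 mutant cells, a ratio of 0.23 (0.18 to 0.28). *mybpc3*, a myosin-binding protein, had 87 of its 93 control UMIs in the 1 slow cell and all 82 mutant UMIs in the 6 slow cells, and its ratio of 0.25 became 3.64 without that control cell. *adss1*, an enzyme of adenine nucleotide synthesis, and *si:ch211-255p10.3* had ratios of 0.37 and 0.39, and 58.7% and 55.8% of their control UMIs lay in the deepest cell, without which they stood at 0.74 each. The pyruvate kinase *pkmb* (268 and 100 CPM, 0.38) and the cytokine signalling inhibitor *socs3a* (163 and 67.7 CPM, 0.42) stood at 0.44 and 0.34 without it, but at 0.514 and 0.52 without their own top cell, where neither was called. *ENSDARG00000087456* and *FO704772.3*, at 0.26 and 0.34, were spread over 11 and 10 control cells.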

How the data were processed

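Cells sorted for GFP at 36 hpf were sequenced as 3′ single-cell libraries, 1 per group. The deposited files hold raw UMI counts per gene and barcode that the authors made with Cell Ranger (7.2.0 in the file headers) on GRCz11. UMIs were not divided by gene length, since 3′ counting takes 1 tag per transcript. Genes with near-identical copies are uncertain. Here barcodes with over 200 genes and under 5% mitochondrial UMIs were kept and gated. UMIs were summed per library and scaled to CPM of all gated UMIs. Poisson and Clopper-Pearson intervals were exact, ratios had conditional binomial intervals, and shares Katz intervals, at 95%. With 1 library per group a size rule took the place of a test: 50 UMIs or more, a ratio of 2 or more or of 0.5 or less, and 1 outside the interval. List medians used a prior of 0.5 UMIs.

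Named are *mgat4b*, the gate genes, in each list up to 4 members with the most UMIs and up to 4 past the size rule, the 10 largest ratios each way with at least 100 UMIs, and the 15 largest folds over other cells; others are said to be singled out. The members and lists were chosen with earlier results of these data known. Scrublet (scanpy 1.11.5) marked 0 and 1 cells at its automatic threshold, so the 25 and 119 highest scores (0.8% per 1000 cells), of which 0 and 4 were gated, were left out as an alternative. TMM came from edgeR 4.0.16. Simulated Poisson counts with known ratios were used to test the calls. They held no variation between cells, embryos or libraries, so they cannot show how the calls fare under it. Promoter sequences were not analysed here. Some gene lists are not reported here.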

Additional observations from a re-analysis of the deposited data

Results flagged for a closer look

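The mutant over control ratio of *mgat4b* was 2.33 in the gated cells and 0.747 in the other passing cells, opposite directions between the 2 cell groups. With 1 library per group the difference between them was not tested.

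Among barcodes that failed the cell filter, which no comparison used, 7 mutant barcodes met the muscle gate, against 0 in control. Their mitochondrial shares ran from 5.81 to 69.0%.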

How the results depend on the processing

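With 1 library per group, 12 control cells set the precision, and counting intervals leave out variation between embryos and sorts. No paired analysis was possible because each group had 1 sample. The *mgat4b* ratio stayed above 1 in every alternative setting, at 1.74 to 2.86, but the interval of the lowest, 0.95 to 3.31, includes 1. With TMM (1.92) and without the deepest control cell (1.93) it fell short of the size rule. The slow cells, not among these settings, ran the other way on 4 control and 10 mutant UMIs. The gated over other ratio of *mgat4b* in control became 1.23 as a mean of per-cell CPM.

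The counts of genes at least 2-fold higher and lower in mutant moved from 368 and 41 to 216 and 101 with TMM, to 656 and 87 at a minimum of 20 UMIs, 164 and 20 at 100 UMIs, 728 and 178 with none, and 164 and 7 at 3-fold. In cells at 10% or more gate share they were 164 and 26, and at 15% or more 40 and 21. The limits on gate share, leaving out slow or shallow cells and leaving out single control cells were chosen after seeing the data. The count lower was 64 with median of ratios, 70 with totals without muscle genes, 155 as a mean of per-cell CPM, 24 without each gene's top cell and 112 at 1.5-fold. The count higher was 156 with mutant cells drawn to the control number. TMM, median of ratios and totals without muscle genes moved the median log2 ratio of all genes by -0.28, -0.15 and -0.20. Leaving out each control cell in turn gave 257 to 523 higher and 34 to 50 lower.

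The slow myosin share was 11.2% in mutant without the cell filter, 0 and 6.86% with the gate at 5%, 19.4 and 18.5% with a gate of 3 genes, 0 and 6.36% with all 5 genes, 5.80% in mutant when drawn to the control number, and 4.04% in control from the sarcomere lists.

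Among named genes 12 values of 10 genes reversed, and the cause was not tested. A further 33 named genes had 0 control UMIs, so no ratio could be compared. At 10% or more gate share the reversed genes were *tpm2* (0.886), *tpm3* (0.461), *tnnt2d* (0), *elavl4* (0.192), *col1a1b* (0.768) and *col2a1a* (0.461). Without slow cells *tnnt2d* was at 0. As a mean of per-cell CPM *icn*, *col1a2* and *krt18a.1* were at 0.855, 0.516 and 0.433. Without each gene's top cell *col2a1a* and *mybpc3* were at 0.612 and 3.64.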
